A study of Homo sapiens with 8 samples.

Results

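The regions described here are stretches of H3K27ac enrichment that hold the start of a long noncoding RNA (lncRNA) and no start of a protein-coding gene. H3K27ac, the acetylated form of histone H3 at lysine 27, was mapped by ChIP-seq. The cells were A549, which derive from a lung adenocarcinoma and in which the transcription factor NRF2 is persistently active. One group, with 3 libraries, came from A549 cells given control siRNA, and the other, also with 3 libraries, from A549 cells given NRF2 siRNA, all harvested at 48 h. NRF2 siRNA 28 was used in replicate 1 and NRF2 siRNA 30 in replicates 2 and 3. The study calls the 3 libraries of a group biological replicates, and the labels do not say how the cultures were separated. The 2 input samples were not analysed here.

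Peaks of the 6 lists were merged where they overlapped by at least 1 bp, which gave 49186 regions. The members were chosen by their calls and by annotation. A member was called in 3 or more of the 6 libraries with both groups present, held a transcript start of a lncRNA gene and held no start of a coding gene. Of the 49186 regions, 1667 met this rule, and 31147 met its calling part alone. The members held starts of 1754 lncRNA genes, with 1474 members holding 1 such gene and 193 holding 2 or more. Because calls chose the members, calls and the requirement for both groups are given as a description, and no region called on one side only can be among them.

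The lists held 23885 to 41571 peaks, and replicate 1 was the shortest list of each group. By the study's own account replicate 1 was also sequenced less deeply than replicates 2 and 3 in both groups. Peak names of replicate 1 lacked the flow cell identifier that those of replicates 2 and 3 carried, so among the NRF2 siRNA libraries a difference in sequencing run or depth cannot be told apart from siRNA 28. Starts of 4 of 5 epithelial markers (KRT8, KRT18, EPCAM and CDH1, but not KRT19) had a peak in all 3 control lists. None of 8 markers of other cell types did, and 7 of the 8 had no peak in any library. The start region of NFE2L2, which encodes NRF2, stood at percentiles 97.9, 98.1 and 98.2 of the control lists and 94.6, 97.9 and 96.8 of the NRF2 siRNA lists (score change -0.20, limma adjusted p = 0.602). A second region at its starts changed by -0.04. An siRNA acts on the RNA, so this region does not check the knockdown.

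H3K27ac is placed by the acetyltransferases p300 and CBP and marks active promoters and enhancers. Many lncRNAs start at such enhancers, while others start at promoters of their own and work in the nucleus, host small RNAs in their introns or act as antisense partners of a neighbouring gene. NRF2, freed from its inhibitor KEAP1 in A549 cells, pairs with a small MAF protein and binds the antioxidant response element, through which it drives genes of detoxification and redox balance.

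The response element was searched on both strands as TGACTCAGC or TGAGTCAGC, letters that also hold a site of the factor AP-1 (TGACTCA or TGAGTCA). A match is a description of the letters only. The following sequences of the hg19 build, with the element in capitals and read along its own strand, are from members whose rank was lower with NRF2 siRNA, and are shown because the share of regions with these letters is compared below.
ENSG00000224409, chr1:33190927-33190967, + strand: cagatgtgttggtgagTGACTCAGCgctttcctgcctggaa
ENSG00000272672, chr1:90404041-90404081, - strand: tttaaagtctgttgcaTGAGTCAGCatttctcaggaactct
ENSG00000237813, chr7:116105970-116106010, - strand: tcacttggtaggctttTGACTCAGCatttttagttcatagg
ENSG00000291039, chr14:24502452-24502492, + strand: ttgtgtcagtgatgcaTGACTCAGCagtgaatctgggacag
ENSG00000292256, chr5:140090750-140090790, - strand: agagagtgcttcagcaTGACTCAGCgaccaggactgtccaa
ENSG00000287809, chr16:21522960-21523000, + strand: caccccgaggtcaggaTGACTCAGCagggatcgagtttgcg
TRIM16L, chr17:18625331-18625371, - strand: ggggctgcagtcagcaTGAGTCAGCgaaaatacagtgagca
LINC02226, chr5:8457482-8457522, + strand: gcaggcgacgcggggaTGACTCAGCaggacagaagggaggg
LINC01269, chr14:71165180-71165220, - strand: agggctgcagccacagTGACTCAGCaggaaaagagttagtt

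Of the 22 members that were higher with NRF2 siRNA, 4 held the element, and 3 of them are shown for comparison, 1 with both of its sites.
ENSG00000287645, chr3:179687509-179687549, - strand: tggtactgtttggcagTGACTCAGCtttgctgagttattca
ENSG00000287167, chr14:69162167-69162207, + strand: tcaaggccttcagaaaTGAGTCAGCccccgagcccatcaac
ENSG00000287167, chr14:69162363-69162403, - strand: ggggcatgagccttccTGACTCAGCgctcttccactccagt
LINC01572, chr16:72325772-72325812, - strand: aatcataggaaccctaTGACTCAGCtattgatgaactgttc

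The element was also present in regions of known lncRNAs whose rank did not pass the threshold, such as the following.
NEAT1, chr11:65195828-65195868, + strand: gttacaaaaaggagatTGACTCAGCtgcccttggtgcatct
DANCR, chr4:53579147-53579187, + strand: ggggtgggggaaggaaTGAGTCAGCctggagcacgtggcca
CYTOR, chr2:87754911-87754951, + strand: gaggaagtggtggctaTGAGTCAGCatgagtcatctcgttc
MIR31HG, chr9:21591787-21591827, - strand: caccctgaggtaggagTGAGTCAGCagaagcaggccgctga

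Members were called widely in both groups. Of the 1667 members, 1088 were called in all 6 libraries, 248 in 5, 206 in 4 and 125 in 3. Control siRNA libraries 1, 2 and 3 called 1325, 1584 and 1649 members, and NRF2 siRNA libraries 1, 2 and 3 called 1174, 1577 and 1658. Within each group, the number of members called rose with the length of the list. Of the 579 members not called in every library, 272 were called in more control than NRF2 siRNA libraries, 137 in more NRF2 siRNA than control libraries and 170 in equal numbers. This split is not given over all regions, so it cannot be read as particular to members. Control siRNA replicate 1 called 79.5% of members and 72.4% of all regions called in both groups. NRF2 siRNA replicate 1 called 70.4% and 61.5%. Among the 248 members called in 5 libraries, NRF2 siRNA replicate 1, the shortest list, was the missing library for 183.

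The place of a region in a list was given as its percentile, the share of the list's peaks whose fold enrichment was no higher than that of the region's strongest peak. The median percentile of called members was 68.3, 68.2 and 72.5 in control siRNA libraries 1 to 3 and 64.0, 67.7 and 70.3 in NRF2 siRNA libraries 1 to 3. In the same order, regions with a coding start stood at 62, 65.2, 74.1, 60.4, 63.6 and 67.9, and regions with neither kind of start at 48.3, 46.5, 51.3, 49.1, 49.2 and 52.1. Members thus stood above coding start regions in 5 of the 6 libraries and above regions with neither start in 6 of 6. Covered length was larger as well. Its median over members was between 1791 bp, in NRF2 siRNA replicate 1, and 2802 bp, in control siRNA replicate 3, against 1294 to 1987 bp for coding start regions and 1513 to 2041 bp for regions with neither. A wide region has more room to hold a start, so part of this difference in width follows from the rule. The percentile is that of the region's strongest peak, so it can also rise with width, and this was not tested.

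**Figure D1:**
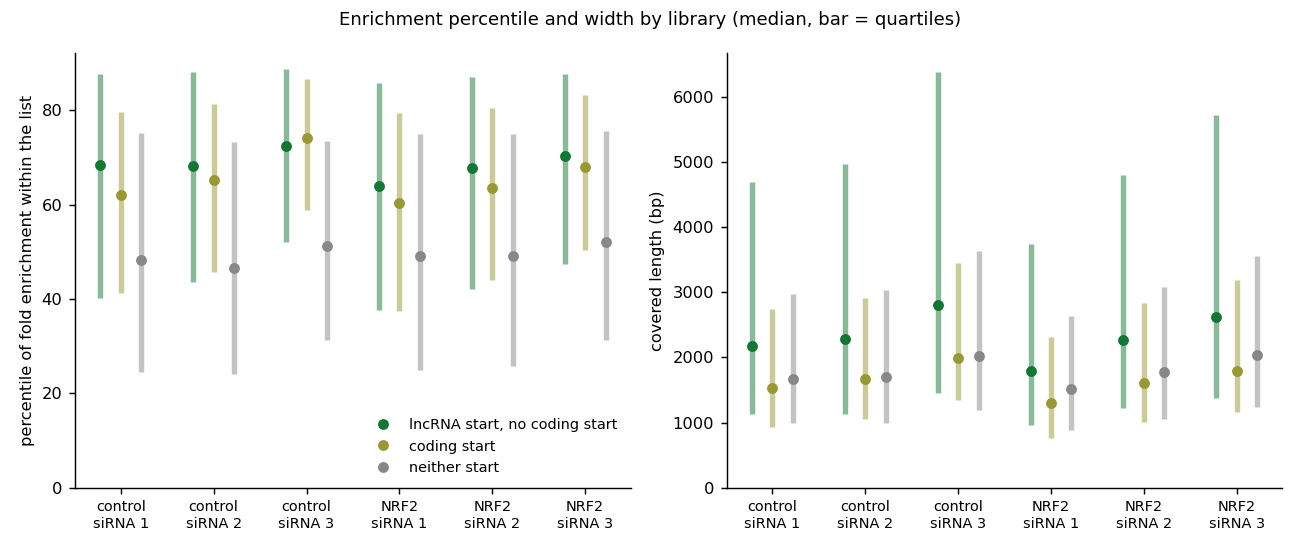
Percentile of fold enrichment within the list (left) and covered length in bp (right) for each of the 6 libraries, in members, coding start regions and regions with neither start. Points are medians over called regions and bars run over the interquartile range. Members reach a median of 72.5 in control siRNA replicate 3 and are the widest class in every library.

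At the edge of the rule, the 125 members called in exactly 3 libraries had a median percentile of 25.4 and a covered length of 1023 bp. The 68 regions with a lncRNA start alone that were called in 1 library of each group, and so fell just outside, had 21.7 and 727 bp. A further 26 such regions were called in all 3 control and no NRF2 siRNA libraries and 11 in all 3 NRF2 siRNA and no control libraries, with median percentiles of 40.5 and 27.6.

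Whether the rank of these regions depended on NRF2 was asked with normal scores. In each library, regions called in at least 3 libraries were ranked by their highest fold enrichment, with regions a library had not called tied at the lowest rank, and the ranks were turned into the values of a standard normal distribution. Scores were compared with limma across all 32673 such regions. The p-values were adjusted by Benjamini-Hochberg, and the threshold was 0.05. Of the 1667 members, 33 were lower and 22 were higher with NRF2 siRNA. These are 1.98% and 1.32% of the members. Over all regions tested, 3.39% were lower and 2.01% higher, but these include regions called on one side only. Over the 31147 regions called in both groups, 2.17% were lower and 1.68% higher, so the members' shares lay near this mixed background. The shares were 1.11% and 0.398% of coding start regions and 2.79% and 2.45% of regions with neither start. The members lay between these classes. The score change had a median of -0.02 over members and 0.03 over regions called in both groups. It was -0.05 over those with a coding start and 0.11 over those with neither start. All 55 members past the threshold moved the same way in the 3 pairs of same-numbered libraries. In 191 members (11.5%) every control percentile was above every NRF2 siRNA percentile, and in 93 (5.58%) the reverse held. The shares over all regions called in both groups were 9.84% and 6.44%. Here a library without a call counted as percentile 0. NRF2 siRNA replicate 1 did not call 493 members and control siRNA replicate 1 did not call 342. These shares thus partly repeat the calls that chose the members. Whether the siRNA 28 pair and the siRNA 30 pairs differed cannot be judged here, because siRNA 28 was used in replicate 1 alone.

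The number of calls depended on the fit and on single libraries. With the replicate number as a block, 61 members were lower and 57 higher, against 4.1% and 4.72% of regions called in both groups, and all 33 and all 22 of the members called without the block were among them. Pairs 2 and 3 alone gave 53 and 45, against 3.6% and 4.65% of regions called in both groups. In these pairs the NRF2 siRNA was 30, and peak names carried a flow cell identifier. Of the 53 and 45 members, 30 and 14 were also called with all libraries. Leaving out control siRNA replicate 2 left 0 calls in limma, lower or higher. The unadjusted p was under 0.05 for 216 members then, and the share over all regions is not given. In the fit to all 6 libraries it was under 0.05 for 287 members (17.2%), against 19.5% of regions called in both groups. There were 2 lower and 0 higher without control siRNA replicate 3, 1 and 0 without NRF2 siRNA replicate 2, 10 and 2 without NRF2 siRNA replicate 3, and 14 and 12 without control siRNA replicate 1. Without NRF2 siRNA replicate 1 there were 44 and 25. Calls over all regions called in both groups moved likewise, from 0% lower and 0% higher without control siRNA replicate 2 to 2.77% and 2.61% without NRF2 siRNA replicate 1. Over those same regions, omitting control siRNA replicate 3 gave 0.266% lower and 0.0128% higher. Omitting control siRNA replicate 1 gave 1.2% and 1.21%. Omitting NRF2 siRNA replicate 2 gave 0.318% and 0.0161%. Omitting NRF2 siRNA replicate 3 gave 0.976% and 0.482%. A region that a library did not call takes the lowest rank, so the change at such members partly repeats the calls that chose them. In a fit to regions called in all 6 libraries, 26 of 1088 members were lower and 15 higher, against 2.19% and 2.02% of all 16845 such regions.

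**Figure D2:**
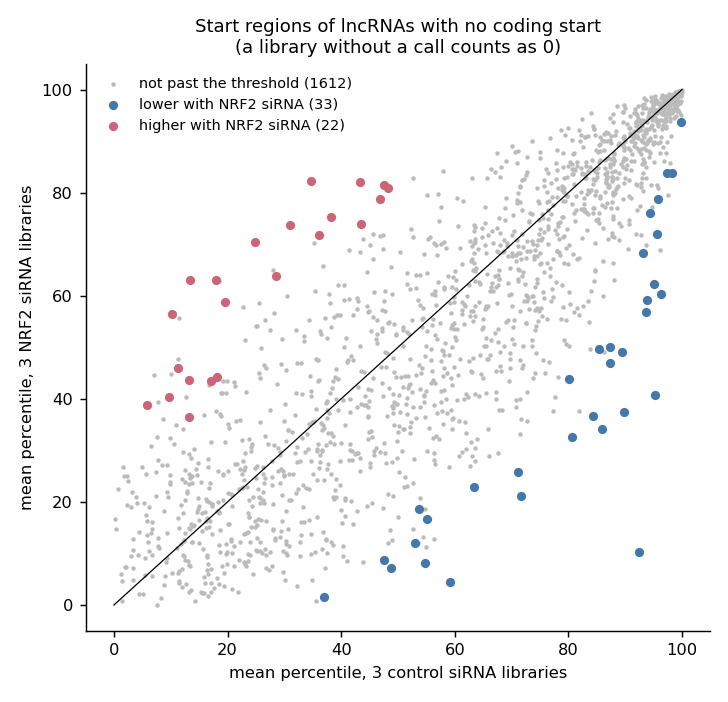
Mean percentile of each of the 1667 members over the 3 control siRNA libraries (horizontal) and the 3 NRF2 siRNA libraries (vertical), with a library that did not call the region counted as 0. Blue points are the 33 members with a lower rank and red points the 22 with a higher rank. The 33 lower members lie below the line of equal percentiles and the 22 higher members above it.

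The largest fall was at ENSG00000270157, a lncRNA without a symbol. Its region (chr7:141361335-141364209) overlaps an exon of DENND11. The region lies 12404 bp from the nearest annotated transcript start of AGK, the acylglycerol kinase gene. It stood at percentiles 89.4, 93.1 and 94.8 of the control lists, was not called in NRF2 siRNA replicate 1 and stood at 22.8 and 8.11 in NRF2 siRNA replicates 2 and 3. The groups were far apart, and the score fell by 2.43 (SE 0.244, limma adjusted p = 0.00628). Over the alternatives its adjusted p ran up to 0.0504, the value without control siRNA replicate 2. It held no response element in the form searched here, and 2 matches to a looser core of the element with 6 fixed letters. A match to this core was present in 33 of 33 lower members and in 89.4% of members that did not pass the threshold, so it hardly separates them.

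At ENSG00000224409 (chr1:33189873-33192253, 15178 bp from the start of KIAA1522) the control percentiles were 92.7, 96.2 and 96.7, and the NRF2 siRNA libraries gave no call in replicate 1 and 51.7 and 70.5 in the others. The score fell by 1.82 (SE 0.309, limma adjusted p = 0.0159). At ENSG00000272672 (chr1:90402448-90412541, 48128 bp from ZNF326) the percentiles were 56.8, 56.5 and 64.2 with control siRNA, and only NRF2 siRNA replicate 3 called it, at 13.1. This region of 10094 bp covered 3125, 7619 and 9567 bp in the control libraries and 1804 bp in that library. Its score changed by -1.48 (limma adjusted p = 0.0146).

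ENSG00000237813 starts in a region within an intron of CAV2 (chr7:116098745-116108326), the caveolin-2 gene. It was called in all 6 libraries, at 96.6, 97.1 and 95.4 with control siRNA and 47.1, 67.5 and 66.7 with NRF2 siRNA, with means of 96.3 ± 0.896 and 60.4 ± 11.6 (SD, n = 3). There was no overlap between groups, and the 3 pairs changed by -1.51, -1.44 and -1.28 score units (limma adjusted p = 0.0101). ENSG00000291039 (chr14:24500905-24507050) lay 14168 bp from the start of CARMIL3. It fell from 86.4, 87.6 and 95.5 to 8.33, 47.9 and 56.2, with a score change of -1.40 (limma adjusted p = 0.0108). ENSG00000292256 (chr5:140089175-140092309) fell from 92.2, 94.2 and 94.4 to 66.0, 44.3 and 60.2 (limma adjusted p = 0.0271). The region covered 2348, 2492 and 3135 bp with control siRNA and 320, 1106 and 761 bp with NRF2 siRNA, which is a log2 width change of -1.92 that did not pass the threshold in limma (adjusted p = 0.0906). ENSG00000287809 (chr16:21520896-21525142) lay 61008 bp from a transcript start of NPIPB3, a gene of a family with near-identical copies whose reads are hard to place. ENSG00000287809 fell from 70.7, 83.5 and 87.5 to no call, 43.3 and 54.3, a score change of -1.26 (limma adjusted p = 0.0260).

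NMRAL2P is a transcribed pseudogene known as an NRF2 target in other human cells, and its locus carries a lncRNA model of the same name. The start region (chr3:185675833-185682108) was called in all 6 libraries. It held no response element in the form searched here, and 9 matches to the looser core. It stood at 98.0, 93.6 and 93.8 with control siRNA and at 56.1, 64.0 and 66.7 with NRF2 siRNA, with means of 95.1 ± 2.47 and 62.3 ± 5.48 (SD, n = 3). No NRF2 siRNA library reached the lowest control value. The score changed by -1.29 (SE 0.243, limma adjusted p = 0.0227), and by -1.56, -1.17 and -1.13 in pairs 1 to 3. The covered length was 5423, 6043 and 5959 bp with control siRNA and 2334, 4784 and 5120 bp with NRF2 siRNA. The adjusted p lay between 0.00145 and 0.102 over the alternatives and passed the threshold in 2 of the 6 fits that left out a library.

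The other 25 lower members are named here after their values were seen. TRIM16L, a copy of the TRIM16 gene whose lncRNA model overlaps a pseudogene, had even values within each group. Its region of 11286 bp (chr17:18619655-18630940) stood at 95.8, 95.4 and 95.3 with control siRNA and at 71.3, 71.6 and 72.7 with NRF2 siRNA, a score change of -1.05 (limma adjusted p = 0.0262). It covered 7967, 9415 and 11257 bp against 5128, 5889 and 5881 bp. Because of its likeness to TRIM16 the level at this copy is uncertain. DDC-AS1, antisense to the dopa decarboxylase gene DDC, fell from 88.8, 97.1 and 95.6 to 47.7, 58.2 and 71.6. KLF2-DT, 29940 bp from the start of the transcription factor gene KLF2, fell from 69.0, 62.5 and 83.3 to no call, 23.9 and 39.8. ELDR, 54019 bp from the nearest annotated transcript start of EGFR, fell from 60.4, 61.7 and 68.1 to no call, 25.2 and 43.6. PELO-AS1, in a region that overlaps exons of ITGA1 and PELO, fell from 95, 92.4 and 92.2 to 61.3, 68.3 and 75.1. PPBPP2, among the chemokine genes near CXCL3, fell from 79.5, 89.6 and 87.0 to 31.2, 55.0 and 62.6. ENSG00000229425, 280772 bp from the nearest coding start, fell from 99.75, 99.72 and 99.73 to 91.8, 92.7 and 96.3. The remaining 18 were LINC02226 with MIR4458HG, LINC02336, LINC02532, LINC01269, LINC03047 and 13 genes without a symbol. Among the last, ENSG00000285016 lies in an intron of ANAPC1, which also has near-identical copies. Of the 33 lower members, 33 were called in all 3 control libraries, 19 in all 6, and 14 were not called in NRF2 siRNA replicate 1.

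The largest rise was at VIM-AS1, whose name marks it as antisense to the gene of the mesenchymal filament protein vimentin. The VIM-AS1 start printed below for this region is not the canonical one. The region (chr10:17255092-17259430) lay outside coding genes, 10810 bp from the nearest transcript start of VIM. It was not called in control siRNA replicate 1, stood at 10.9 and 29.1 in control siRNA replicates 2 and 3, and at 32.5, 77.7 and 79.1 with NRF2 siRNA. The lowest NRF2 siRNA value was thus close to the highest control value, and the other 2 were far above. The score rose by 1.54 (SE 0.224, limma adjusted p = 0.0104), and the adjusted p was between 0.00315 and 0.0625 over the alternatives.

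CDC42EP3-AS1, 83821 bp from a transcript start of CDC42EP3, was the only one of the 8 largest rises called in all 6 libraries. It stood at 6.03, 52.7 and 45.3 with control siRNA and at 81.8, 85.6 and 79.5 with NRF2 siRNA, with means of 34.7 ± 25.1 and 82.3 ± 3.11 (SD, n = 3). The score rose by 1.27 (limma adjusted p = 0.0224). LINC02831 rose from no call, 43.8 and 30.8 to 62.7, 79.7 and 69.2. ENSG00000287645, in an intron of PEX5L, rose from no call, 46.0 and 47.2 to 60.4, 84.9 and 76.0. ENSG00000287167, in an intron of the DNA repair gene RAD51B, rose from no call, 22.5 and 8.07 to 23.5, 78.5 and 67.4. ENSG00000233616, which shares its region with ENSG00000234156, lay 26627 bp from a transcript start of the cyclooxygenase gene PTGS1. Its region rose from no call, 38.2 and 20.7 to 47.2, 68 and 61.4. In these 4 regions every NRF2 siRNA library was above every control library.

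The remaining rises by the naming rule were at ENSG00000261411 and LINC00858. ENSG00000261411 was called in control siRNA replicate 3 alone among the controls, at 17.6, and at 35.8, 37.6 and 42.9 with NRF2 siRNA. LINC00858 was likewise called in control siRNA replicate 3 alone, at 39.5, but at 13.2, 54.9 and 62.9 with NRF2 siRNA, so its groups overlapped. The limma adjusted p of the 6 rises after VIM-AS1 and CDC42EP3-AS1 lay between 0.0243 and 0.0448, and 12 of the 22 higher members were not called in control siRNA replicate 1.

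**Figure D3:**
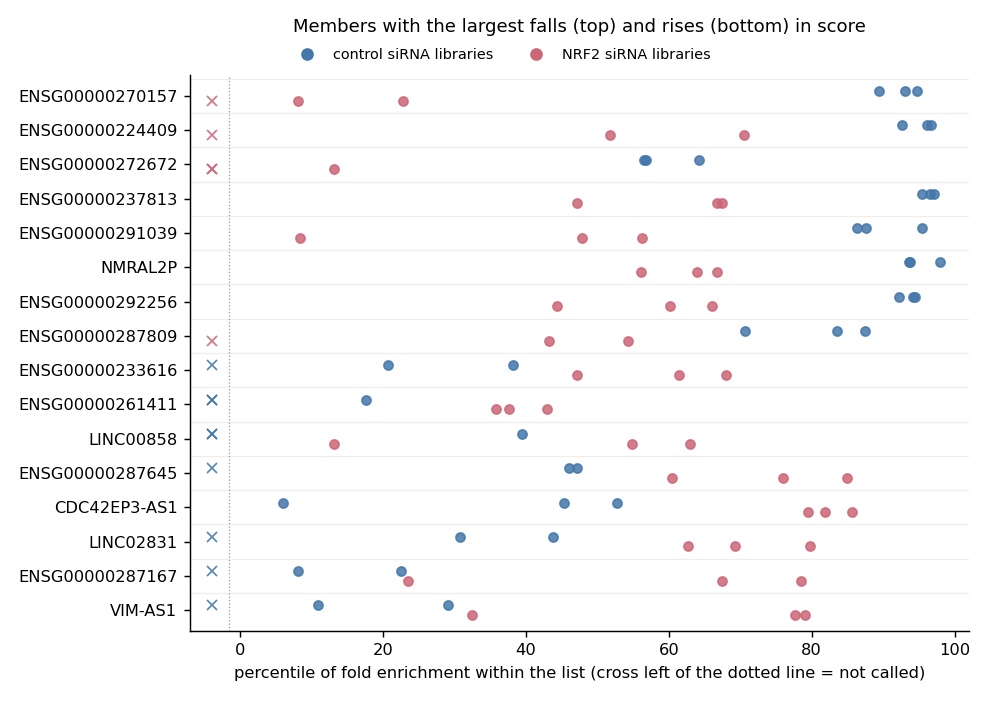
Percentile of fold enrichment in each of the 6 libraries for the 8 members with the largest falls (upper rows) and the 8 with the largest rises (lower rows), control siRNA in blue and NRF2 siRNA in red. Crosses mark libraries that did not call the region. The 8 falling members do not overlap between groups, and LINC00858 among the rising members does.

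The letters of the response element played no part in choosing the regions, and their share was highest where the rank was lower. The element was present in 17 of 33 lower members (51.5%), in 4 of 22 higher members (18.2%) and in 319 of the 1612 that did not pass the threshold (19.8%). Over all regions called in both groups the same shares were 54.1%, 12.6% and 13.0%. The median region was 2875 bp over lower members, 2601 bp over higher members and 3414 bp over those that did not pass. Per length, the element occurred 0.153 times per kb in lower members, 0.0847 in higher and 0.0445 in those that did not pass. With the replicate block, 41.0% of lower and 19.3% of higher members held the element, and with pairs 2 and 3 alone 41.5% and 13.3%. Regions are not independent replicates, and no test was made of these shares.

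**Figure D4:**
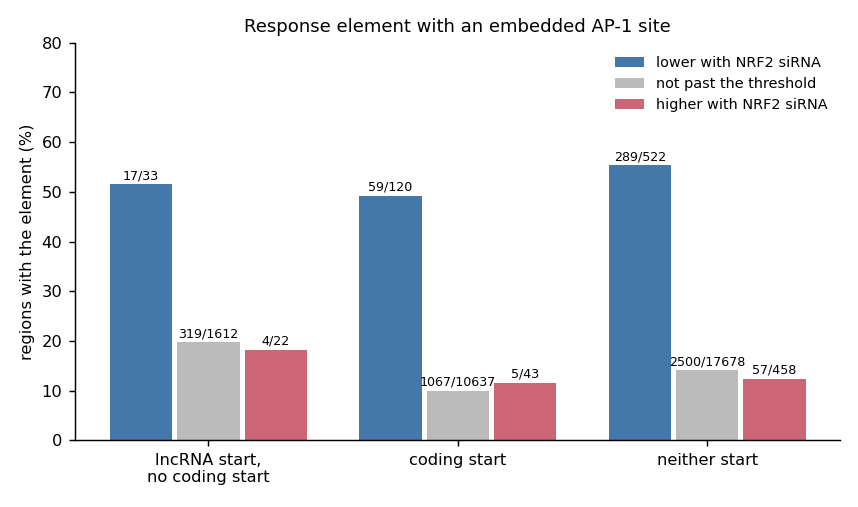
Percentage of regions that hold the response element with its embedded AP-1 site, for members, coding start regions and regions with neither start, split by the limma rank call. Numbers above the bars are regions with the element over all regions of that kind. The lower bar is the tallest in each class, at 51.5% for members.

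The position of the element was measured from the nearest lncRNA start. The distance cannot exceed the width of a region and also depends on its number of starts. Over all lower, higher and other members the median region was 2875, 2601 and 3414 bp, and a role of width was not tested. The element's median distance was 109 bp over the 17 lower members that held it, 322 bp over the 4 higher and 930 bp over the 319 that did not pass. It lay within 500 bp of a start in 11, 3 and 117 of them. It was centred 15 bp downstream of a TRIM16L start, 24 bp downstream of a start of ENSG00000287809 and 30 bp upstream of the start of ENSG00000292256. The last is shown from 100 bases before the start to 50 after it, read along the gene, with the element (here in the reverse orientation) in capitals.
ENSG00000292256, chr5:140090700-140090849, + strand: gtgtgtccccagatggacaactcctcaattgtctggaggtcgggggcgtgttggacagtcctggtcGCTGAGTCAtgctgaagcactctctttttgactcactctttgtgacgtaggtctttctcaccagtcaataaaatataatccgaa

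Windows of 300 bases, from 250 before to 50 after a start, gave the wider background. The element was present in 3.58% of 5620 distinct lncRNA starts within members, in 1.11% of all 47639 lncRNA starts and in 0.812% of 59825 coding starts in regions called in both groups. Starts within one region overlap, so these windows are not independent.

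Of 35 known lncRNAs on a fixed list, 18 started in members, in 26 regions. None of the 26 passed the threshold in limma, with or without the replicate block, and 18 of 26 had a negative score change, with a median of -0.11 against -0.02 over all members. The list was drawn up with earlier results of these data known. A further 8 (OIP5-AS1, GAS5, SNHG1, ZFAS1, MIR22HG, CRNDE, TP53TG1 and HOTAIRM1) were no members since their start region also holds a coding start, and TUG1 is itself listed as a coding gene. UCA1, H19, HOTAIR, MEG3, AFAP1-AS1, FENDRR and SLC7A11-AS1 had no peak over a start in any library, and LINC00942 was not found by that symbol.

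Among nuclear and regulatory lncRNAs, MALAT1, NEAT1 and LINC-PINT stood near the top of every list, while NORAD and KCNQ1OT1 stood lower. MALAT1, which resides in nuclear speckles, shared its region of 44378 bp with TALAM1, LINC02736 and 5 genes without a symbol. It stood at 98.2, 99.38 and 99.77 with control siRNA and at 99.41, 98.6 and 98.8 with NRF2 siRNA, so the groups overlapped (score change -0.14, limma adjusted p = 0.789). NEAT1, the scaffold of paraspeckles, stood at 99.51, 98.6 and 98.9 and at 99.48, 95.3 and 95.1. NRF2 siRNA replicates 2 and 3 were below all controls and replicate 1 was not, and the score changed by -0.37 (limma adjusted p = 0.538). Without NRF2 siRNA replicate 1, or in pairs 2 and 3 alone, the change at NEAT1 did not pass either, and its adjusted p ran from 0.0949 to 0.834 over the alternatives. NORAD, which binds Pumilio proteins, stood at 81.2, 83.8 and 89.5 and at 81.8, 91.5 and 91.4. KCNQ1OT1, the imprinted antisense RNA of KCNQ1, stood at 75.6, 87.8 and 78.8 and at 89.3, 84.8 and 76.9. LINC-PINT, a p53-responsive RNA, had regions at mean percentiles of 98.90 and 95.95 over the 6 libraries, and neither differed (limma adjusted p = 0.516 and 0.814).

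LUCAT1 is a stress-induced lncRNA that is known to respond to NRF2 in airway cells exposed to smoke. Its start region of 10607 bp (chr5:90602692-90613298) stood at 97.6, 97.5 and 97.8 with control siRNA and at 97.3, 97.7 and 97.6 with NRF2 siRNA. The libraries were almost level (score change 0.01, SE 0.191, limma adjusted p = 0.984). The covered length was 7545, 7042 and 10290 bp with control siRNA and 4257, 6102 and 8718 bp with NRF2 siRNA, a log2 change of -0.32 (limma adjusted p = 0.605). A response element was centred 13 bp upstream of a LUCAT1 start. The window from 100 bases before the canonical start to 50 after it holds it, in capitals.
LUCAT1, chr5:90610170-90610319, - strand: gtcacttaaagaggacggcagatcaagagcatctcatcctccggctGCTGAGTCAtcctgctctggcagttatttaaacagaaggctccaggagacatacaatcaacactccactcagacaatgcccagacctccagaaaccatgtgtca

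Host genes of small RNAs were spread over a wide range of levels. Among host genes of snoRNAs, SNHG16 stood at 79.0, 80.3 and 88.7 with control siRNA and at 71.9, 76.1 and 82.4 with NRF2 siRNA, and SNHG12 at 69.3, 70.0 and 78.4 and at 58.3, 68.1 and 75.4. DANCR, a differentiation-linked RNA that hosts a snoRNA, stood at 56.5, 64.7 and 66.1 and at 37.6, 52.4 and 52.2. All 3 NRF2 siRNA libraries were below the controls at DANCR, but the score change of -0.27 did not pass (limma adjusted p = 0.497). EPB41L4A-AS1 varied more within groups than between them, at 23.3, 52.8 and 71.2 and at 32.8, 39.6 and 50.7. Over 32 snoRNA host genes of the annotation list, 16 started in members. Of their 16 regions 0 were lower and 0 higher in limma, also with the replicate block, 12 had a negative change and the median change was -0.17.

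Among miRNA host genes, MIR31HG had one of the widest members of all, with 52791 bp between the outer ends and percentiles of 98.5, 99.13 and 99.56 with control siRNA and 98.3, 99.14 and 99.4 with NRF2 siRNA. MIR17HG, host of an oncogenic miRNA cluster, stood at 77.8, 61.9 and 76.8 and at 72.7, 49.2 and 55.2. MIR210HG, whose miRNA is induced by hypoxia, stood at 59.7, 53.8 and 62.4 with control siRNA, was not called in NRF2 siRNA replicate 1 and stood at 66.6 and 68.3 in the others, so pair 1 and the other pairs moved in opposite directions. The 3 MIR100HG regions had mean percentiles of 85.01, 91.20 and 85.41 and score changes of -0.07, -0.36 and -0.16. The 2 DLEU2 regions had 72.05 and 67.84, with changes of -0.01 and -0.19. Of 70 host genes on the list, 24 started in members, in 35 regions, of which 1 was lower, that of MIR4458HG with LINC02226, and 0 higher. With the replicate block 3 were lower and 0 higher.

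PVT1, the lncRNA neighbour of MYC, started in 5 members. The first, which holds its canonical start, stood at 97.5, 91.8 and 90.5 with control siRNA and at 98.7, 98.2 and 98.0 with NRF2 siRNA. Region 4 stood at 57.4, 59.6 and 54.4 and at 82.8, 72.0 and 68.7, and in both regions every NRF2 siRNA library was above every control. Region 5 stood at 60.1, 85.4 and 67.7 and at 83.0, 91.9 and 89.0. The score changes of these 3 regions were 0.61, 0.54 and 0.65, and none passed the threshold in limma (adjusted p = 0.213, 0.286 and 0.160). With the replicate block and equal list lengths together regions 4 and 5 did (adjusted p = 0.0461 and 0.0433). The range among alternatives was 0.0461 to 0.570 at region 4 and 0.0433 to 0.391 at region 5. Regions 2 and 3 changed by -0.16 and 0.32 (limma adjusted p = 0.760 and 0.452). The regions of 1 gene are not independent.

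CYTOR, a cytoskeleton-linked RNA, stood at 70.1, 67.9 and 64.9 with control siRNA and at 55.4, 66.1 and 70.3 with NRF2 siRNA, a score change of 0.01. LINC00261, an endodermal lncRNA beside FOXA2, had the lowest level of the list. It was called in control siRNA replicates 2 and 3, at 7.37 and 26.9, and in NRF2 siRNA replicate 3, at 20. Of 30 regions of 12 lncRNAs tied to cancer, among them PVT1, CASC15, LINC00511 and AGAP2-AS1, 0 were lower and 0 higher, with a median change of 0.05, and with the replicate block 1 was lower. Of 6 regions of stress and p53 lncRNAs and 20 of nuclear and regulatory lncRNAs, 0 passed, and with the replicate block 1 of the latter was lower.

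**Figure D5:**
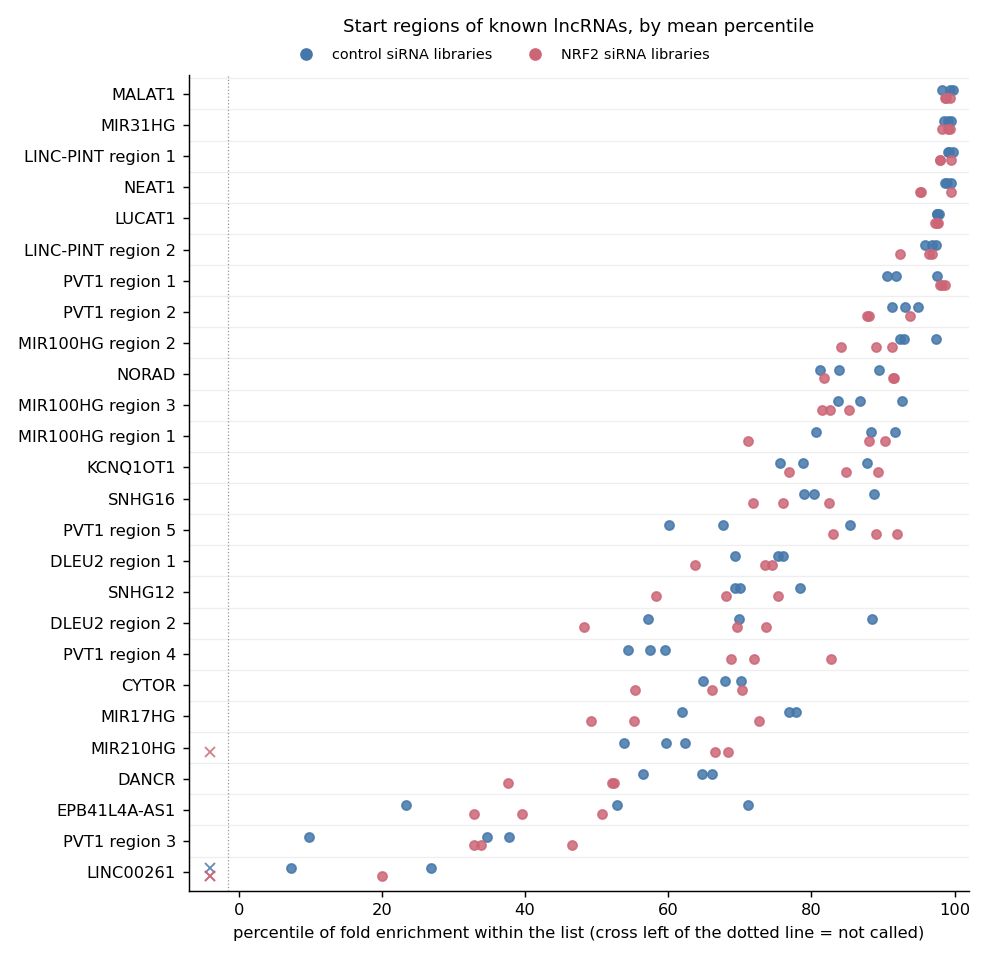
Percentile of fold enrichment in each of the 6 libraries for the 26 start regions of known lncRNAs, ordered by their mean percentile, control siRNA in blue and NRF2 siRNA in red. Crosses mark libraries that did not call the region. MALAT1, MIR31HG and LINC-PINT sit near the top of all 6 lists, and in the PVT1 regions 1 and 4 the NRF2 siRNA points lie above the controls.

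A canonical NRF2 gene, from a list of 36, started within 100 kb of 8 members (0.48%), against 0.581% of regions called in both groups. None of the 8 passed the threshold in limma. Of the 8, 7 had a negative score change, with a median of -0.19 against -0.02 over all members. For comparison, 181 regions called in both groups lay as near, of which 24 were lower and 1 higher, with a median change of -0.27. ENSG00000284735, 4124 bp from the start of PGD, which encodes an enzyme of the pentose phosphate pathway, stood at 99.2, 99.5 and 99.8 with control siRNA and at 89.6, 98.9 and 98.1 with NRF2 siRNA. All NRF2 siRNA libraries were below the controls, and the score changed by -0.72 (limma adjusted p = 0.128). ENSG00000203469, 59538 bp from the same start, stood at 77.3, 68.5 and 85.9 and at no call, 37.5 and 75.3, with a change of -0.97 (limma adjusted p = 0.133). ENSG00000286349, 80648 bp from UGDH, the UDP-glucose dehydrogenase gene, stood at 98.3, 99.6 and 96.4 and at 83.7, 97.1 and 91.9, with a change of -0.71 (limma adjusted p = 0.197). With the replicate block these 3 had an adjusted p of 0.0631, 0.0627 and 0.0566. At NQO1, a classical NRF2 target whose own start region changed by -0.94 (limma adjusted p = 0.0508), the member ENSG00000261602 lay 14453 bp away. It was called in 2 control libraries, at 17.5 and 22.4, and in NRF2 siRNA replicate 3, at 23.3. The other members lay near TXNRD1, FTL, EPHX1 and AKR1B10, with changes of -0.25, -0.05, -0.03 and 0.08.

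Base composition set the members apart from coding start regions, which is a description of the hg19 sequence. The median GC content was 47.2% in members, 55.0% in coding start regions and 42.2% in regions with neither start. The ratio of observed to expected CpG dinucleotides had medians of 0.27, 0.66 and 0.20. Among distinct lncRNA starts in members, 41.8% had a ratio of at least 0.6 in their 300-base window, against 82.2% of coding starts in regions called in both groups and 28.5% of all lncRNA starts. Most members were CpG-poor, whether they passed the threshold or not. The ratio over the region was at least 0.6 in 5 of 33 lower members, 1 of 22 higher members and 305 of the 1612 that did not pass (15.2%, 4.55% and 18.9%). In windows from 100 bases before a start to 50 after it, the 26 starts of known lncRNAs held 0 to 28 CpG (median 7), the 8 largest falls 0 to 9 (median 2.5) and the 8 largest rises 0 to 8 (median 2), so the ranges overlapped. Windows of known lncRNAs rich in CpG are those of MALAT1, MIR31HG and NORAD, with 20, 24 and 11, shown with CpG in capitals to give that end of the range.
MALAT1, chr11:65265011-65265160, + strand: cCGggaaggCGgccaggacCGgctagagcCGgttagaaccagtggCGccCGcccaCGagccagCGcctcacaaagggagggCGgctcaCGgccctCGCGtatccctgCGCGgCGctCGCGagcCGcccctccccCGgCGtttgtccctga
MIR31HG, chr9:21559799-21559948, - strand: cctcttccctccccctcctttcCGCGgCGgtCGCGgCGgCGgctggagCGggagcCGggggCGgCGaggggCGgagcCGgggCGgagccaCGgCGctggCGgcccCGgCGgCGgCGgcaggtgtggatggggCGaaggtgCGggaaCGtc
NORAD, chr20:34638891-34639040, - strand: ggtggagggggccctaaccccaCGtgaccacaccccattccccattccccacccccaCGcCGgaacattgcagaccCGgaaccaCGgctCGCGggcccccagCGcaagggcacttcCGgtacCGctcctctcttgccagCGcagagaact

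The other end of the range is shown by 4 of the 16 members that changed most, with 3 CpG in the window of NMRAL2P, 0 in that of ENSG00000237813, 2 in that of ENSG00000270157 and 0 in that of VIM-AS1. The known LUCAT1 start, with 2, was as poor in CpG, and the most among the 16 was 9, at ENSG00000291039.
NMRAL2P, chr3:185677632-185677781, + strand: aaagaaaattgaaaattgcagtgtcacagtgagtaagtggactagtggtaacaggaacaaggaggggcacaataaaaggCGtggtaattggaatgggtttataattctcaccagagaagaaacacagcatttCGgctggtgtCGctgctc
ENSG00000237813, chr7:116105281-116105430, - strand: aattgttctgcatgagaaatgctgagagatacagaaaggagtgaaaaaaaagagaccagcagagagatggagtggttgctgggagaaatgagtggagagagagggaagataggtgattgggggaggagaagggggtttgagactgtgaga
ENSG00000270157, chr7:141363597-141363746, - strand: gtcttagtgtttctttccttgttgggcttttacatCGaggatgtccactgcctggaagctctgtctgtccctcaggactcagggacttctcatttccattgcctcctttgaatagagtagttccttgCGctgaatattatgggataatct
VIM-AS1, chr10:17258325-17258474, - strand: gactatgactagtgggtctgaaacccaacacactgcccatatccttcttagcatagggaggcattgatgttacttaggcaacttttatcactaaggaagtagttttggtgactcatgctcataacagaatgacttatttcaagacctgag

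By name, 872 of the members (52.3%) were led by a gene without a symbol, 416 by an intergenic LINC gene, 130 by an antisense gene, 44 by a host gene of small RNAs, 21 by a divergent gene, 4 by an overlapping or intronic one and 180 by a gene with another symbol. The calls were spread over these classes: of 33 lower members 21 had no symbol, 5 were LINC, 2 antisense, 1 divergent, 0 host genes and 4 another symbol, and of 22 higher members 13, 6, 3, 0, 0 and 0. Most members, 1307 of 1667, lay outside coding genes, while 203 lay in introns and 157 overlapped exons of one. The median distance to a coding start was 33951 bp. Only 66 members had a coding start within 1 kb, of which 0 were lower and 1 higher, and 862 had one over 10 to 100 kb away, of which 21 were lower and 12 higher.

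The members of highest mean percentile were DLGAP1-AS1 with DLGAP1-AS2, GASAL1, ENSG00000267288, ENSG00000233085 and ENSG00000267446, and all stood at 98.8 or above in every library. GASAL1 was the only one with separated groups, at 99.98, 99.97 and 99.97 with control siRNA and 99.18, 99.79 and 99.85 with NRF2 siRNA (limma adjusted p = 0.0856, and from 0.0337 to 0.215 over the alternatives). The widest by mean covered length were LINC-PINT region 1 with 51053 bp, MIR31HG with 49646 bp, LNCAROD with 45738 bp, DLGAP1-AS1 with 43993 bp and LINC01714 with 43828 bp. LNCAROD, 119507 bp from the WNT inhibitor gene DKK1, covered 33978, 46510 and 57283 bp with control siRNA and 28901, 50379 and 57380 bp with NRF2 siRNA, so that the groups overlapped. The covered length of DLGAP1-AS1 was 43787, 50697 and 53512 bp and 23064, 41193 and 51706 bp. In both, and in LINC01714, replicate 1 was the narrowest library of its group.

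Width was tested over the 1088 members called in all 6 libraries, as log2 covered length centred on the median of each library. The median change was -0.06, and 654 of 1088 members (60.1%) were narrower with NRF2 siRNA. Over all 16845 regions called in all 6 libraries the median was -0.03 and 53.9% were narrower. Coding start regions were like the members, with a median of -0.06 and 59% narrower. Regions with neither start had 0.01 and 48.4%. Of all 16845 regions 0% passed the threshold in limma, and 0 members did, although 141 members and 1930 of all regions had an unadjusted p under 0.05. Without centring, the median change of the members was -0.17.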

How the data were processed

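H3K27ac was measured by ChIP-seq in 3 control siRNA and 3 NRF2 siRNA libraries of A549 cells. Per the labels and the study's methods, Bowtie2 2.2.6 was used by the authors for alignment to hg19 and MACS2 2.1.0.20151222 for broad peaks, separately for each library. The columns of a deposited list are a whole-number score, a fold enrichment (a linear ratio over background), and the −log10 of the p-value and of the q-value, all as the authors obtained them from MACS2. The deposited lists hold no read counts. The study states read totals per library, which were not used here, so no interval that needs them is given. P-values measure the spread between the 3 libraries of a group.

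Peaks were merged into regions and matched to transcript starts of GENCODE release 44 lifted to GRCh37, whose sequence has the same coordinates as hg19 (0 peaks lay past the end of the 24 chromosomes compared). Sequences were read from that GRCh37 file. Distances to coding genes were taken to the nearest transcript start, which can lie inside a gene. For canonical NRF2 genes they were taken to the gene start. Fold values were used only as ranks within a list. Normal scores and centred log2 widths were compared with limma 3.58.1 (R 4.3.3). P-values were adjusted by Benjamini-Hochberg, and the code was tested on simulated data. Other steps used Python 3.11.15, pandas 2.3.3 and scipy 1.17.1.

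Same-numbered libraries deviated together (r = 0.398, 0.199 and 0.363 for pairs 1, 2 and 3), so the replicate numbers, taken from the sample titles, pair the libraries. An alternative fit took the replicate number as a block. Members, lists and tests were chosen with earlier results of these data known. Named regions were the 8 largest falls and 8 largest rises among called members with 1 direction in all 3 pairs, the known lncRNAs of a fixed list, and the 5 members of highest percentile and 5 widest. Others are said to have been named after their values were seen. One list of lncRNAs is not reported here.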

Additional observations from a re-analysis of the deposited data

How the results depend on the processing

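Counts of members past the threshold moved with most choices, in limma throughout. The replicate block gave 61 lower and 57 higher, eBayes with trend and robust options 58 and 46, pairs 2 and 3 alone 53 and 45, and ranking every region called in at least 1 library 18 and 4, where more regions were tested. Equal list lengths gave 38 higher, a q-value of at most 1e-05 14 higher, with fewer members, and equal list lengths with the replicate block, a fit chosen after seeing the data, 83 and 77. With one library left out, lower members ran from 0 to 44 and higher members from 0 to 25. Shares over all regions called in both groups rose with the replicate block too, to 4.1% lower and 4.72% higher. In the main fit they were 2.17% and 1.68%. For the trend and robust options, every region called, equal list lengths and the stricter q-value such shares are not given. Counts under those settings therefore cannot be read as particular to members. The replicate block changed the call of none of the 49 named regions. The median width change moved to -0.17 without centring, which the library medians account for by construction, and no width call was gained in any setting among members. Between 1145 and 1692 regions met the rule under its alternatives. The shares of called members with the response element, under fits chosen after seeing the data, ran from 41.0 to 51.5% of lower and from 13.3 to 21.7% of higher members.

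Among the values of the named regions under alternatives, 652 of 760 kept direction and side of the threshold, 71 lost the threshold, 3 gained it and 34 changed sign. None of the 16 regions named by rule and past the threshold changed sign. The sign changes were at MIR210HG (0.295 with pairs 2 and 3 alone, 0.687 with the stricter q-value), KCNQ1OT1 (-0.0757 with pairs 2 and 3 alone), CYTOR (-0.0645 with the length-weighted mean fold, -0.0241 with regions called in all 6 libraries, -0.0959 with the stricter q-value), DLEU2 region 1 and LNCAROD (0.0201 and 0.0228 with the length-weighted mean fold), and ENSG00000233085 and LINC01714 (-0.0667 and 0.0199 with pairs 2 and 3 alone). Omission of 1 library at a time gave score changes from -0.288 to 0.0063 at MALAT1, -0.0927 to 0.052 at MIR31HG, -0.462 to 0.166 at MIR210HG, -0.135 to 0.0339 and -0.253 to 0.0365 at MIR100HG regions 1 and 3, -0.0756 to 0.0519 and -0.31 to 0.0103 at DLEU2 regions 1 and 2, -0.0383 to 0.0515 at LUCAT1, -0.136 to 0.146 at CYTOR, -0.0671 to 0.357 at KCNQ1OT1, -0.287 to 0.107 at LINC00261, -0.234 to 0.0374 at LINC-PINT region 2, -0.262 to 0.194 at DLGAP1-AS1, -0.0179 to 0.171 at ENSG00000233085, -0.479 to 0.133 at LNCAROD and -0.279 to 0.0236 at LINC01714. The cause of these changes was not tested. Read depth was not used, and ranks cannot show a change common to all regions.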
